A study of Mus musculus with 20 samples.

Results

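The 10 genes described here encode molecular chaperones and chaperonins, the proteins that help other proteins to fold. They are Hsp90aa1, Hsp90ab1, Hspa8, Hspa5, Hspd1, Hspe1, Cct2, Cct3, Cct5 and Cct8, chosen by name, and all 10 were found among the 25246 genes of the transcript tables. Their transcripts were followed in thymic NK1.1- intraepithelial lymphocyte precursors (IELPs), which are immature T cells that carry an αβ T cell receptor, lack CD4 and CD8αβ, and go on to seed the gut epithelium. Single cells were sorted into wells and sequenced by CEL-Seq2, which reads the 3′ end of each mRNA and counts molecules by a 6-base identifier. Sorting by CD122, a chain of the IL-15 receptor, and by the T-bet reporter gave 4 populations, named here CD122-, CD122+, T-bet int and T-bet high in their proposed order of maturation. CD122- and CD122+ cells lacked T-bet, and both kinds of T-bet+ cells also carried CD122.

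The cells came from 3 mice, 1 for each genotype, by the text deposited with the series, while the study itself speaks of mice and gives the C-myc genotypes an age range that starts at the labelled age. The TBGR mouse, 4 weeks old, carried a ZsGreen reporter of T-bet and intact C-myc, and gave 8 libraries of 96 wells, 2 for each of the 4 populations. The TBGR C-myc fl/fl mouse, 2 weeks old, carried the same reporter and floxed but undeleted C-myc, and gave 8 libraries with 2 populations side by side in each: 4 libraries held both T-bet- populations and 4 held the int and high populations. The TBGR C-myc D/D Cd4 mouse, also 2 weeks old, carried the reporter and C-myc deleted by Cre driven from Cd4, and gave 4 libraries, 2 for each T-bet- population. Hence all 3 mice shared the reporter, and Cre was active from the CD4+CD8+ thymocyte stage, before the cells sampled here. Of 1920 wells with a sorted population, 1413 held at least 2000 transcripts and were used.

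With 1 mouse per genotype there was no test between conditions. Libraries are technical splits of 1 mouse, and each interval below is a 95% interval that covers counting error only. Genotype, mouse and library could not be told apart, nor could age where TBGR is set beside the others. In the TBGR and D/D Cd4 mice a population and its libraries could not be told apart either, while each fl/fl library held both members of a pair. Levels are given as transcripts per 1000000 transcripts of the summed cells (CPM), and a smaller number of transcripts per cell could not be told from a larger share of other transcripts. A gene was called higher or lower when its level differed by at least 1.5-fold and no library of the first population overlapped with any of the second, among genes with at least 100 transcripts.

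Chaperones bind unfolded segments of proteins and release them in cycles driven by ATP. In the cytosol, HSP70 proteins take up chains as they leave the ribosome, HSP90 proteins complete the folding of kinases and transcription factors, and the ring-shaped chaperonin CCT folds actin and tubulin. Mitochondria have their own chaperonin and the endoplasmic reticulum its own HSP70, and growing or dividing cells generally make more of these proteins. Coordinates follow GRCm38. Hsp90aa1 (chr12:110690605-110702728, minus strand) and Hsp90ab1 (chr17:45567775-45573271, minus strand) encode the inducible and the constitutive cytosolic HSP90. Hspa8 (chr9:40800984-40810087, plus strand) encodes HSC70, the constitutive cytosolic HSP70, and Hspa5 (chr2:34771970-34777547, plus strand) encodes BiP, the HSP70 of the endoplasmic reticulum. Hspd1 (chr1:55077835-55088243, minus strand) and Hspe1 (chr1:55088132-55091307, plus strand) encode HSP60 and its lid HSP10, the mitochondrial chaperonin. Cct2 (chr10:117051001-117063814, minus strand), Cct3 (chr3:88297116-88321767, plus strand), Cct5 (chr15:31590800-31601804, minus strand) and Cct8 (chr16:87483326-87495873, minus strand) encode 4 of the subunits of CCT.

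The promoters of 3 members are shown, because Hspd1 and Hspe1 lie head to head, with 112 bases of overlap between the annotated genes, and because Hspa5 had levels unlike those of most members. Each line is the 250 bases before the transcription start in RefSeq (GRCm38.p6), 5′ to 3′ on the strand of its gene. The capitals mark a run of 4 alternating heat shock units in Hspe1 (chr1:55088059-55088076, beginning 89 bases before the start), the E-box CACGTG, which can bind C-Myc, in Hspd1 (chr1:55088318-55088323, beginning 80 bases before) and an endoplasmic reticulum stress element, CCAAT and CCACG set 9 bases apart, in Hspa5 (chr2:34772025-34772043, beginning 65 bases before).
Hspe1, chr1:55087898-55088147, plus strand: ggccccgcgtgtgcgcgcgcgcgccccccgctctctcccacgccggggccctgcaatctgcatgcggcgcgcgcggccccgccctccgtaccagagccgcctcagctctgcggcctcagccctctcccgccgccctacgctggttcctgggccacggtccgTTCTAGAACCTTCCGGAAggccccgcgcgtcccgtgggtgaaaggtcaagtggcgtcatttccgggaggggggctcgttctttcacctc
Hspd1, chr1:55088244-55088493, minus strand: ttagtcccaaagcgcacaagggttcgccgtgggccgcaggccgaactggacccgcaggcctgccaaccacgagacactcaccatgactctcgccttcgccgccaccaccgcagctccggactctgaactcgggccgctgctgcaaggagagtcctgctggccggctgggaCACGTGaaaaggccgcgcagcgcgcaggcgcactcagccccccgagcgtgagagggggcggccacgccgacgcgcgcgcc
Hspa5, chr2:34771840-34772089, plus strand: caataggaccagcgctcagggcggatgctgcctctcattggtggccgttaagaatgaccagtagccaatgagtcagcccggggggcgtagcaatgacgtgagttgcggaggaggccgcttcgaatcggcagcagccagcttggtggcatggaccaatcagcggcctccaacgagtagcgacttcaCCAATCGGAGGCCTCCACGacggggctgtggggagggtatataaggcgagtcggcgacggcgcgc
Both strands were searched in windows from 250 bases before to 50 after the start, of which RefSeq gave 32851, with 10 windows for 7 of the members. The run of 4 heat shock units was in 5 of all windows (0.0152%), the stress element in 39 (0.119%), and the E-box in 7.15%. Of the 5 windows with the run, 2 were of members and held the same site. They were the Hspe1 window and another Hspd1 window, not shown, where the run begins 144 bases before the start. The shorter heat shock pairs TTCNNGAA and GAANNTTC, which overlap with the run, were in 8.52% and 7.86% of all windows. Cct5 had the former, beginning 34 bases before its start, and Cct2 the latter, 42 bases before. These are matches of letters, not measured binding.

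The 3′ reads of 3 members could also map to other genes. Over the last 500 bases of each transcript, 81.8% of 50-base windows of Hspa8 (369 of 451) occurred in other annotated genes, 11 in all, against 53.2% for Hspe1, 7.76% for Hsp90ab1 and 0 for the other members. Reads that mapped to several places had been discarded.

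Several measures of the libraries moved with the populations. The median number of transcripts per cell was between 4239 and 7074 by population. Gm10800, a predicted gene, took 7.81% to 42.8% of the transcripts of a population and up to 89.3% of those of a cell, and was highest in CD122- cells of every mouse (25.4%, 42.8% and 31.0% in TBGR, fl/fl and D/D Cd4). Because it lowers every other share, ratios or counts are also given with Gm10800 left out, wherever this changes a call. This alternative was chosen after seeing the data. For its clustering, the study removed genes whose levels correlated with Gm10800 or with a few other transcripts. Cycling cells, those with transcripts of at least 2 of 12 cell cycle genes, made up 17.2%, 66.7%, 74.9% and 15.6% of the TBGR populations in order of maturation, 33.3%, 68.9%, 76.7% and 56.3% of the fl/fl populations, and 41.4% and 27.7% of the CD122- and CD122+ cells of the D/D Cd4 mouse. Genes of the T cell receptor complex were present throughout, with 3610 to 6948 CPM summed over 6 markers. Il2rb, which encodes CD122, was at 0 to 19.4 CPM in CD122- libraries and at 146 to 554 CPM in the others. Klrb1c, which encodes NK1.1, reached 613 and 463 CPM in the 2 TBGR high libraries although NK1.1+ cells had been gated out. Myc was at 16.7 and 30.01 CPM in CD122- and at 44.5 and 9.957 CPM in CD122+ libraries of the D/D Cd4 mouse, against 14.0 to 63.0 CPM and 10.6 to 135 CPM in the fl/fl libraries, and 3′ tags need not lie in the deleted part.

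**Figure D1:**
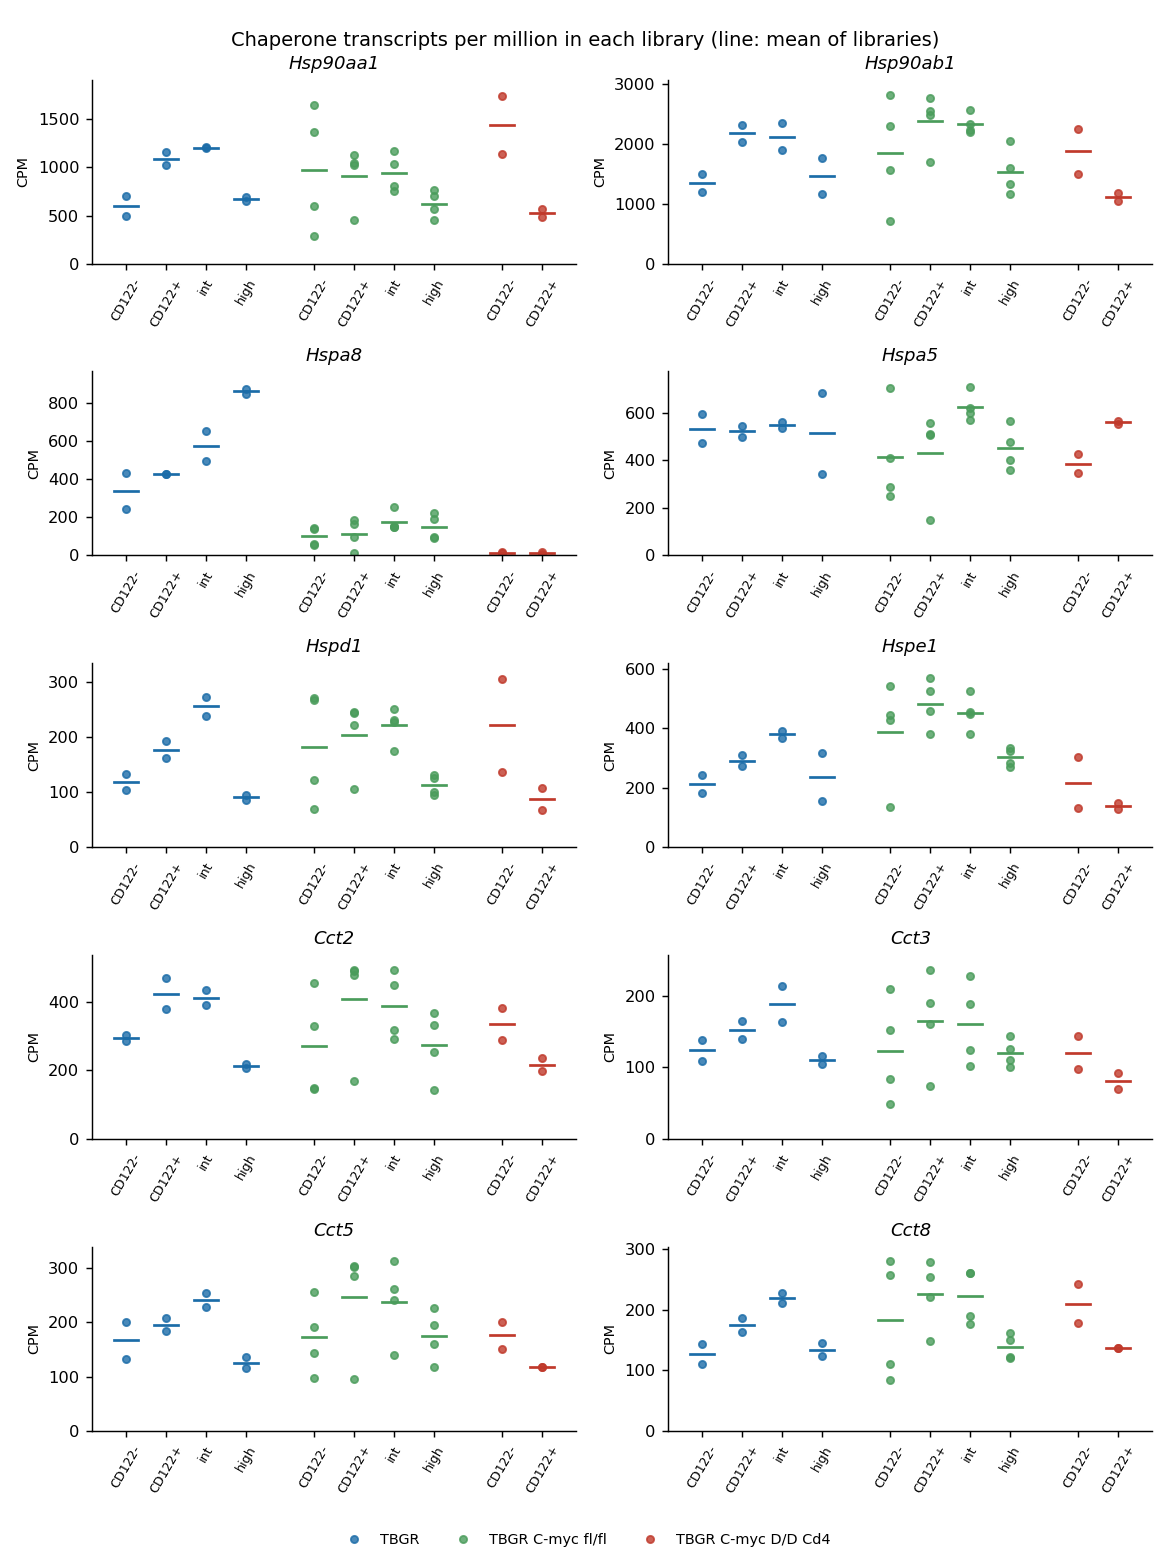
Transcripts per 1000000 (CPM) of each of the 10 genes, 1 point per library and population, with a line at the mean of the libraries. The 3 mice are in blue, green and red. Within the TBGR mouse most members were highest in CD122+ or T-bet int cells, Hspa8 was highest in TBGR high cells (851 and 878 CPM) and near 0 in the D/D Cd4 mouse, and for 7 genes called in the D/D Cd4 mouse, such as Hsp90aa1 (565 and 485 against 1137 and 1747 CPM), both CD122+ points lie below both CD122- points.

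In the TBGR mouse the cytosolic HSP90 genes were highest in the populations with the most cycling cells. Hsp90aa1 was at 703 and 493 CPM in the 2 CD122- libraries, at 1156 and 1028 CPM in CD122+, at 1211 and 1200 CPM in T-bet int and at 694 and 647 CPM in T-bet high cells. The middle populations were thus above both ends in every library. Hsp90ab1 was at 1501 and 1204 CPM, then 2318 and 2034 CPM, then 1893 and 2348 CPM, and at 1759 and 1169 CPM in T-bet high cells. Both passed the rule from CD122- to CD122+ cells, with log2 ratios of 0.88 (95% interval 0.74 to 1.02) for Hsp90aa1 and 0.69 for Hsp90ab1.

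The mitochondrial chaperonin also peaked in a middle population. Hspd1 was at 132 and 105 CPM in CD122-, 193 and 161 CPM in CD122+, 273 and 239 CPM in T-bet int and 95.5 and 85.7 CPM in T-bet high cells, so that T-bet int cells were highest and T-bet high cells lowest in both libraries. Hspe1 was at 244 and 181 CPM, 310 and 272 CPM, 392.4 and 367 CPM, and then at 316 and 154 CPM. The 2 T-bet high libraries of Hspe1 lay far apart and both stayed below the T-bet int libraries.

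None of these 4 CCT subunits reached 1.5-fold between neighbouring populations before the T-bet high stage. Cct2 was at 304 and 286 CPM in CD122-, 468 and 379 CPM in CD122+, 435 and 389 CPM in T-bet int and 208 and 218 CPM in T-bet high cells. Cct8 was at 143 and 111 CPM, 187 and 163 CPM, 227 and 212 CPM, and 144 and 124 CPM. Cct3 lay between 104 and 213 CPM and Cct5 between 116 and 255 CPM over the 8 libraries, with both T-bet high libraries below both T-bet int libraries.

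The HSP70 genes of the cytosol and the endoplasmic reticulum did not follow this order. Hspa8 was at 436 and 246 CPM in CD122-, 428 and 431 CPM in CD122+, 495 and 655 CPM in T-bet int and 851 and 878 CPM in T-bet high cells, where both libraries were above all others. Hspa5 was at 595 and 471 CPM, 546 and 500.2 CPM, 538 and 563 CPM, and 685 and 343 CPM. All 4 populations of Hspa5 overlapped.

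Counted together, 3 of 10 members were higher in CD122+ than in CD122- TBGR cells (Hsp90aa1, Hsp90ab1 and Hspd1) and 0 were lower, against 24.7% of all 4057 tested genes higher and 5.5% lower. The share of members is close to the background. The median log2 ratio of the members was 0.46 and that of all tested genes 0.28. With Gm10800 left out, Hsp90aa1 (0.65) was the only member called, against 13.6% of all genes, and the medians were 0.24 and 0.06. Without cycling cells 0 were called, and the median was 0.054. The count was 6 without CD122- library 1 and 1 without CD122- library 2. From CD122+ to T-bet int cells, 0 members were called in either direction, against 9.06% of genes higher and 8.86% lower, with log2 ratios between -0.05 for Cct2 and 0.52 for Hspd1. Without the first CD122+ library or either T-bet int library, 1 member was higher.

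From T-bet int to T-bet high cells, 6 of 10 members were lower: Hspd1 (log2 ratio -1.46, interval -1.88 to -1.09), Cct2 (-0.96), Cct5 (-0.90), Hsp90aa1 (-0.83), Cct3 (-0.80) and Cct8 (-0.67). The share of all 3524 tested genes called lower was 22.3%, and called higher 11.5%. Hsp90ab1 (-0.44) and Hspe1 (-0.53) did not reach 1.5-fold, and Hspa5 (0.06) was close to 0. Hspa8 had a log2 ratio of 0.58 (0.43 to 0.74), just under 1.5-fold, and with Gm10800 left out (0.61) it was called higher while the same 6 members stayed lower. Without the second T-bet int library or the first T-bet high library Hspa8 was called as well. The members' median was -0.73 and that of all tested genes -0.13. Cycling cells went from 74.9% to 15.6% between these populations, and without them 2 members were lower, 1 was higher and the median was -0.20.

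Other folding genes gave the same picture at the T-bet high stage for CCT. All 4 other CCT subunits measured were lower in T-bet high than in T-bet int cells, with log2 ratios of -1.23 for Tcp1, -0.86 for Cct4, -0.73 for Cct7 and -0.72 for Cct6a. Of 11 genes for partners of the cytosolic HSP70, 5 were lower (4 with Gm10800 left out, where Hspa14 was lost, and 2 relative to the median gene), among them Hspa4 (-0.81), a nucleotide exchange factor, and Dnajc2 (-1.04), a J protein of the ribosome. Of 9 folding genes of the endoplasmic reticulum, 3 were lower, Canx (-0.98), P4hb (-0.74) and Manf (-0.79), and Pdia3 (0.67), a disulphide isomerase, was higher. Of 4 prefoldin subunits, which pass actin and tubulin to CCT, Pfdn6 (-1.37) was lower, and of 7 HSP90 co-chaperones Ppid (-0.92).

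From CD122- to CD122+ TBGR cells, where 24.7% of all tested genes were called higher and 5.5% lower, the called folding genes were all higher. They included Cct7 (1.04), Bag1 (1.136), a nucleotide exchange factor of HSP70, and, in the endoplasmic reticulum, Canx (1.17) and Hsp90b1 (1.01), the HSP90 of that compartment, while Hspa5 itself had a ratio of -0.02. In all, 5 of 10 HSP70 partners, 3 of 9 genes of the endoplasmic reticulum and 2 of 7 co-chaperones were called. So were 1 of 4 other CCT subunits, 1 of 4 prefoldin subunits and 0 of 3 mitochondrial folding genes. With Gm10800 left out the counts were, in this order, 2, 2, 0, 1, 0 and 0, against 13.6% of all tested genes higher. Atf4 (0.82), a stress response factor, was higher here and lower (-0.67) from CD122+ to T-bet int cells, where Ptges3 (0.75), Pfdn6 (0.61) and Hspa14 (0.64), an HSP70 of the ribosome, were higher. Pfdn6 and Hspa14 were no longer called with Gm10800 left out, and Dnajb1 (-0.66), a J protein, was lower.

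In the fl/fl mouse the CD122- libraries lay far apart. Hsp90aa1 was at 1653, 288, 1365.5 and 598 CPM in CD122- cells of libraries 1 to 4 and at 1129, 1024, 1047 and 456 CPM in CD122+ cells of the same libraries. CD122+ cells were below CD122- cells in 3 libraries and above in library 2, with log2 ratios of -0.55, 1.82, -0.38 and -0.38. Hsp90ab1 was at 2817, 707, 2304 and 1567 CPM in CD122- and at 2475, 2551, 2765 and 1697 CPM in CD122+ cells, and Hspd1 at 272, 69.8, 267 and 122 CPM and at 221, 245, 244 and 106 CPM. Both populations overlapped for each of these genes.

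Hspe1 was at 543, 135, 445 and 427 CPM in fl/fl CD122- and 525.5, 459, 568 and 382 CPM in CD122+ cells, and Cct2 at 456, 149, 329 and 146 CPM and at 489, 476, 492 and 170 CPM. Cct2 and Cct3 were higher in the CD122+ cells of all 4 libraries and Cct5 in 3, with 97.6 against 95.5 CPM in library 4. Without Gm10800 this held in all 4 for Cct3 and in 3 for Cct2. Cct8 was at 257, 83.7, 280.2 and 110 CPM and at 221, 254, 280 and 149 CPM. Hspa5 was at 703, 251, 409 and 287 CPM and at 558, 512, 505 and 149 CPM. Hspa8 was at 141, 55.8, 147 and 61.0 CPM and at 184, 165, 99.2 and 10.6 CPM, so that its CD122+ level in library 4 was below every other fl/fl level.

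No fl/fl member was called between the T-bet- populations, since all 10 overlapped, against 7.68% of 1771 tested genes called higher and 0.903% lower. Log2 ratios lay between -0.01 for Hsp90aa1 and 0.69 for Cct2, with a median of 0.36 that was below the 0.55 of all tested genes. With Gm10800 left out the members' median was 0.01, Hsp90aa1 was at -0.37 and Cct2 at 0.33. Without library 4, 2 members were higher, as were 2 without cycling cells, where the median was 1.29. With Gm10800 also left out, the median without cycling cells was 0.92 for the members and 0.53 for all tested genes.

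From T-bet int to T-bet high cells of the fl/fl mouse, most members were lower within libraries. Hspd1 was at 232, 251, 174 and 228 CPM in T-bet int and at 131, 95.2, 127 and 100.1 CPM in T-bet high cells of libraries 1 to 4 of this pair. Hspe1 was at 528, 449, 454 and 380 CPM and at 282, 271, 336 and 325 CPM. Hsp90ab1 was at 2205, 2330.2, 2569 and 2228 CPM and at 1602, 1158, 2041 and 1335 CPM. In all 3 genes each T-bet high library was below every T-bet int library.

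These 3 and Cct8 (176, 261, 261 and 190 CPM against 161, 120.3, 121 and 150.2 CPM) were the 4 members called lower, against 6.02% of 2027 tested genes lower and 2.61% higher. Their log2 ratios were -0.98 for Hspd1, -0.71 for Cct8, -0.61 for Hspe1 and -0.59 for Hsp90ab1. With Gm10800 left out Hspd1 alone (-0.87) was called, against 4.19% of all genes, and the count was also 1 without library 2 and 2 without cycling cells. In 8 members T-bet high cells were below T-bet int cells in all 4 libraries, and in Hspa8 and Cct3 in 3 of 4. Most genes fell as well: 32.0% of all tested genes had a log2 ratio above 0, against 0 of the members. The share of all genes below in every library was not computed. Hsp90aa1 was at 1175, 1031, 809 and 759 CPM against 705, 451, 770 and 567 CPM, and Hspa5 at 570.5, 619, 709 and 601 CPM against 479, 361, 567 and 401 CPM. The median was -0.55 for the members and -0.18 for all genes. Hspa8, at 257, 154, 149 and 152 CPM against 222, 95.2, 193 and 91.8 CPM, had a ratio of -0.21 in this mouse, where that of the TBGR mouse was 0.58.

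Among the other folding genes, Cct6a (-0.86) and Cct4 (-0.61) were lower in T-bet high fl/fl cells, as in TBGR, but Cct4 (-0.49) was not called with Gm10800 left out. The co-chaperones Fkbp4 (-1.10), an immunophilin, and Ptges3 (-1.05), which encodes p23, were lower of 6 tested, and St13 (-0.76), which encodes the HSP70 partner Hip, of 9. No folding gene of the 8 of the endoplasmic reticulum was called.

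From CD122- to CD122+ cells of the TBGR mouse 9 of 10 members had a log2 ratio above 0, and 3 were called. Of all tested genes 71.6% had a ratio above 0 there. In fl/fl the 2 populations overlapped, and Hsp90aa1 and Hspd1 were higher in CD122+ cells of only 1 of 4 libraries. In the mouse without C-myc, most members were lower in CD122+ than in CD122- cells, opposite in sign to TBGR. Hsp90aa1 was at 1137 and 1747 CPM in CD122- and at 565 and 485 CPM in CD122+ cells, a log2 ratio of -1.53 (-1.71 to -1.37). Hsp90ab1 was at 1502 and 2248 CPM and at 1048 and 1185 CPM (-0.80), and Hspd1 at 137 and 307 CPM and at 66.7 and 107 CPM (-1.42). Both CD122+ libraries were below both CD122- libraries in each of these genes.

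The CCT subunits had smaller differences in the same direction. Cct2 was at 288 and 382 CPM in CD122- and 197 and 236 CPM in CD122+ cells (-0.65), and Cct8 at 177 and 242 CPM and at 137 and 137 CPM (-0.66). Cct3 (97.0 and 144 CPM, then 69.9 and 92.1 CPM) had a ratio of -0.60 and Cct5 (151 and 201 CPM, then 118 and 117 CPM) of -0.63. Hspe1 was at 130.5 and 302 CPM and at 130.2 and 149 CPM, where the libraries overlapped.

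Hspa5 was the exception, at 428 and 345 CPM in CD122- and at 565 and 555 CPM in CD122+ cells. Its log2 ratio of 0.57 (0.35 to 0.79) was just short of 1.5-fold, with no overlap of libraries. Hspa8 was at 16.7 and 10.7 CPM and at 6.35 and 19.9 CPM, which is 10 transcripts in each population and too few to be called.

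In total 7 of 10 members were lower in CD122+ than in CD122- D/D Cd4 cells and 0 higher, against 16% of 2106 tested genes lower and 23.2% higher. The members' median was -0.66, that of all tested genes 0.05, and the 7 calls remained with Gm10800 left out (median -0.72). Only 2 members were called lower without CD122- library 2, and 1 was higher without CD122- library 1. Weighting each cell equally left 2 members lower and thinning each cell to 2000 transcripts left 1, with medians of -0.15 and -0.21. Without cycling cells, which were 41.4% of CD122- and 27.7% of CD122+ cells, 0 members were lower, 4 were higher and the median was 0.85. The share of all genes called without cycling cells is not given. Gm10800 took 45.9% of the transcripts of the remaining CD122- cells and 27.8% of those of the remaining CD122+ cells. With it left out, their median was 0.44 for the members and 0.24 for all tested genes. With all cells counted, immediate early genes, which can respond to cell handling, were also higher in CD122+ D/D Cd4 cells: 6 of 6 were called, Junb at 2.10, and their summed level was 1260.1 against 412 CPM. The study reported higher agonist-selection genes, Nr4a1 among them, in CD122+ cells without C-myc. Whether handling or receptor signals raised the immediate early genes was not tested. Markers of CD4+CD8+ thymocytes, 6 in all with Rag1 and Cd8b1 among them, summed to 432 CPM (6 detected) in CD122- and 99.1 CPM (5 detected) in CD122+ cells, and to 706 and 107 CPM in TBGR and 241 and 34.3 CPM in fl/fl. Of 5 B cell markers, 3 were detected in CD122- and 5 in CD122+ D/D Cd4 cells, at 15.7 and 120.01 CPM in sum, the latter between 15.9 and 202 CPM by library. Markers of T cells with a γδ receptor, 4 in all, summed to 960 CPM in CD122- and 1061 CPM in CD122+ D/D Cd4 cells. Their sums were 569 and 397 CPM in fl/fl, and 509 and 797 CPM in TBGR. The part of these genes in the result was not tested.

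**Figure D2:**
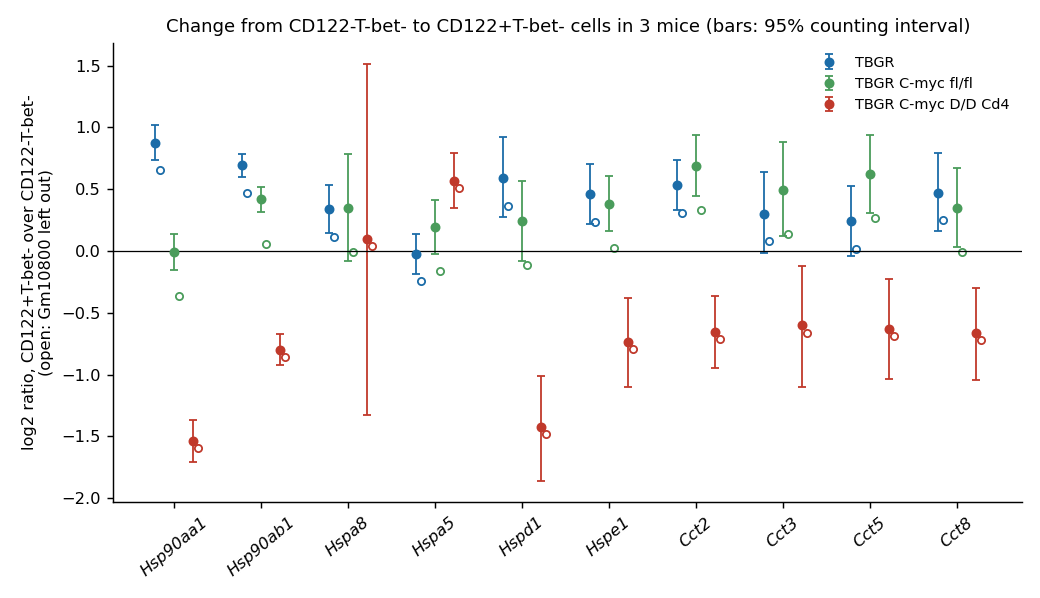
Log2 ratio of CD122+ over CD122- cells for each of the 10 genes in the TBGR (blue), TBGR C-myc fl/fl (green) and TBGR C-myc D/D Cd4 (red) mouse, with 95% counting intervals, and open points with Gm10800 left out. The red points lie below 0 for 8 genes, down to -1.53 for Hsp90aa1, and above 0 for Hspa5 (0.57) and Hspa8 (0.10), while the filled blue and green points are above or close to 0.

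HSP90 co-chaperones moved with the HSP90 genes in the D/D Cd4 mouse: of 5 tested, Fkbp4 (-1.74), Ptges3 (-1.004) and Stip1 (-0.99), which links HSP70 to HSP90, were lower in CD122+ cells. Of the 4 other CCT subunits, Cct6a (-0.76) and Cct4 (-0.63) were lower, and of 2 prefoldin subunits Pfdn5 (0.72) was higher. Of 8 genes of the endoplasmic reticulum, Hsp90b1 (0.60) was higher, as was Atf4 (0.60), a transcription factor of the stress response, of 2 tested. Leaving Gm10800 out, Hsp90b1 and Atf4 were no longer called, and Chordc1 (-0.60), an HSP90 co-chaperone, and Hspa4 (-0.73) were lower as well.

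Deletion of C-myc was then compared with the floxed mouse of the same age, within each population. In CD122- cells 0 of the 9 members tested were called, against 26.4% of 1793 tested genes higher and 1.39% lower. The log2 ratio of D/D Cd4 over fl/fl was 0.60 for Hsp90aa1, 0.07 for Hsp90ab1, 0.37 for Hspd1 and -0.71 for Hspe1, and the CCT subunits lay between -0.02 and 0.32. The median of these 9 was 0.07 and that of all tested genes 0.45. Hspa8 had too few transcripts to be called, but its 2 libraries (16.7 and 10.7 CPM) were below all 4 fl/fl libraries (55.8 to 147 CPM), a ratio of -2.93. Without D/D Cd4 library 1 of this population, 2 members were higher, and without D/D Cd4 library 2 or fl/fl library 2, 1 was lower.

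In CD122+ cells 9 of 10 members had levels below those of the fl/fl mouse. Hspe1 had a log2 ratio of -1.82 (-2.16 to -1.51), Hsp90ab1 of -1.14 (-1.27 to -1.02) and Cct8 of -0.80 (-1.18 to -0.44), and these 3 were called lower, against 11.9% of 2113 tested genes lower and 23.4% higher. The other ratios were -3.18 for Hspa8, -1.30 for Hspd1, -1.21 for Cct5, -1.12 for Cct3, -1.02 for Cct2 and -0.93 for Hsp90aa1. Hspa5 was at 0.23. The median was -1.13 for the members and 0.06 for all tested genes.

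Which members were called depended on fl/fl library 4, whose CD122+ cells had low levels of most members. Without it 9 members were lower, with Gm10800 left out 8 were (17.8% of all genes), and without D/D Cd4 CD122+ library 2 there were 6. Without cycling cells 1 was lower. The share of cells with at least 1 transcript, after thinning each cell to 2000, was 19.0% for Hspe1 in D/D Cd4 CD122+ cells against 56.6% in fl/fl, and 76.6% against 89.3% for Hsp90ab1. For Hspa8 it was 1.46% (exact binomial interval 0.177 to 5.17) against 16.4%, where the TBGR mouse had 54.8%. Barcodes without a sorted cell held 330 transcripts of the members in all libraries together, 0.646% of the transcripts of those barcodes, where the members took 0.300% to 0.614% of the transcripts of a population. The 3′ ends of Hspa8, Hspe1 and Hsp90ab1 occur in part in other genes, as given above, and the part of this was not tested.

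**Figure D3:**
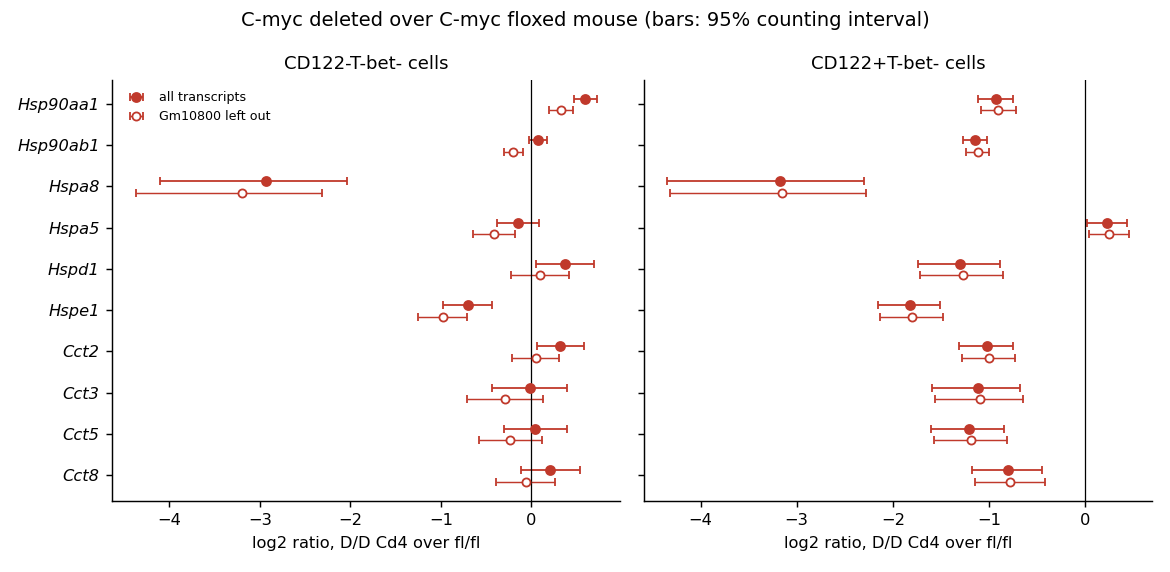
Log2 ratio of the C-myc deleted (D/D Cd4) over the C-myc floxed (fl/fl) mouse for each of the 10 genes, in CD122- cells (left) and CD122+ cells (right), with 95% counting intervals, filled for all transcripts and open with Gm10800 left out. In CD122+ cells all genes but Hspa5 (0.23) are below 0, and in CD122- cells they lie between -0.71 (Hspe1) and 0.60 (Hsp90aa1) apart from Hspa8 (-2.93).

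The co-chaperones of HSP90 were again low in D/D Cd4 CD122+ cells, with 3 of 4 called: Fkbp4 (-1.66), Ptges3 (-1.32) and Cdc37 (-0.76), which delivers kinases to HSP90. Cct6a (-1.20) was lower of 3 other CCT subunits, and Hspa9 (-1.44), the mitochondrial HSP70, was the only gene of its list tested and was lower. Xbp1 (0.59), a transcription factor of the endoplasmic reticulum stress response, was higher, while 0 of 8 folding genes of that compartment were called. Stip1 (-0.85) and Dnajb1 (-0.60) were also lower when Gm10800 was left out. Of 5 immediate early genes tested, 4 were higher, as were 2 of 3 markers of γδ T cells. In CD122- cells Dnajc3 (0.96) of the endoplasmic reticulum and Chordc1 (0.93) were higher, the latter not with Gm10800 left out.

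The change from CD122- to CD122+ cells was also set side by side as a difference between the 2 mice, D/D Cd4 less fl/fl. It was below 0 for 9 of 10 members, with counting intervals below 0 for 8, and its median was -1.17. All 1571 genes with values in both mice had a median of -0.54, and 73.3% were below 0. The largest values were -1.66 for Hspd1 and -1.52 for Hsp90aa1, followed by Cct2 (-1.34), Cct5 (-1.25) and Hsp90ab1 (-1.22). Hspa5 was at 0.37 (0.07 to 0.68), and Hspa8 at -0.25 (-1.58 to 1.08). Leaving out 1 library at a time moved the median between -1.41 and -0.79.

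Since cycling cells differed in number between populations, members were also compared within cycling and within other cells, with Gm10800 left out. In CD122- cells of the 2-week-old mice the members were concentrated in cycling cells. They made up 1.20% of the transcripts of cycling and 0.330% of those of other cells in fl/fl, and 0.976% and 0.299% in D/D Cd4. By library the fl/fl cycling cells were at 1.34%, 0.463%, 1.30% and 1.24%, so that library 2, with 10 such cells, stood apart. In CD122- cells of the TBGR mouse the shares were 0.540% and 0.510%. The split uses a cell's detected cycle genes, which depends on its depth, and between 12 and 60 cells of a population had exactly 1 such gene.

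Hsp90aa1 had the widest gap. In fl/fl CD122- cells it was at 1951 CPM of all transcripts in cycling and 197 CPM in other cells, higher in cycling cells of all 4 libraries, and in D/D Cd4 CD122- cells at 2358 and 333 CPM, higher in both. Hspd1 was at 360 and 40.9 CPM in fl/fl and at 367 and 65.4 CPM in D/D Cd4. Hsp90ab1 was at 3345 and 617 CPM, and at 2943 and 592 CPM. These levels count Gm10800, which widens the gaps. The log2 gap of Hsp90aa1 was 3.30 in fl/fl and 2.82 in D/D Cd4, and 2.63 and 2.26 with Gm10800 left out. Then it was 2.43 and 1.90 for Hspd1, and 1.77 and 1.75 for Hsp90ab1.

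The order of CD122- and CD122+ cells turned with this split. In cycling cells the members' median log2 ratio of CD122+ over CD122- was 0.23 in TBGR, with 8 of 10 above 0, -0.44 in fl/fl, with all 10 below 0, and -0.98 in D/D Cd4, with 8 below. In other cells it was -0.11 in TBGR, 0.92 in fl/fl, with all 10 above 0, and 0.44 in D/D Cd4, with 7 above. Among fl/fl cycling cells library 2 went against the pooled direction. Its summed share of members was 0.463% in CD122- and 0.831% in CD122+ cells, while the share fell in libraries 1, 3 and 4. The medians of all tested genes in TBGR, fl/fl and D/D Cd4 were 0.11, -0.02 and -0.39 in cycling cells. In other cells they were -0.005, 0.53 and 0.24, so that part of the shift was shared by all genes. The lower level of most members in CD122+ D/D Cd4 cells was thus seen in cycling cells and not in the others. Hspa5 was above 0 in both, at 0.67 and 0.60.

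The lower level in D/D Cd4 than in fl/fl CD122+ cells was seen in both classes. It had a median of -1.12 in cycling and -0.77 in other cells, with 9 of 10 members below 0 in each. In CD122- cells the medians were -0.31 and -0.19. Those of all tested genes were -0.17 in cycling and 0.27 in other CD122+ cells, and 0.05 in both classes of CD122- cells. T-bet high cells were below T-bet int cells in cycling cells of the TBGR mouse (median -0.54, 9 of 10 below) and of the fl/fl mouse (-0.42, all 10 below), and in other cells the medians were -0.27 and -0.39. The medians of all tested genes were -0.16 and -0.04 in cycling cells, and -0.04 and -0.05 in other cells.

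**Figure D4:**
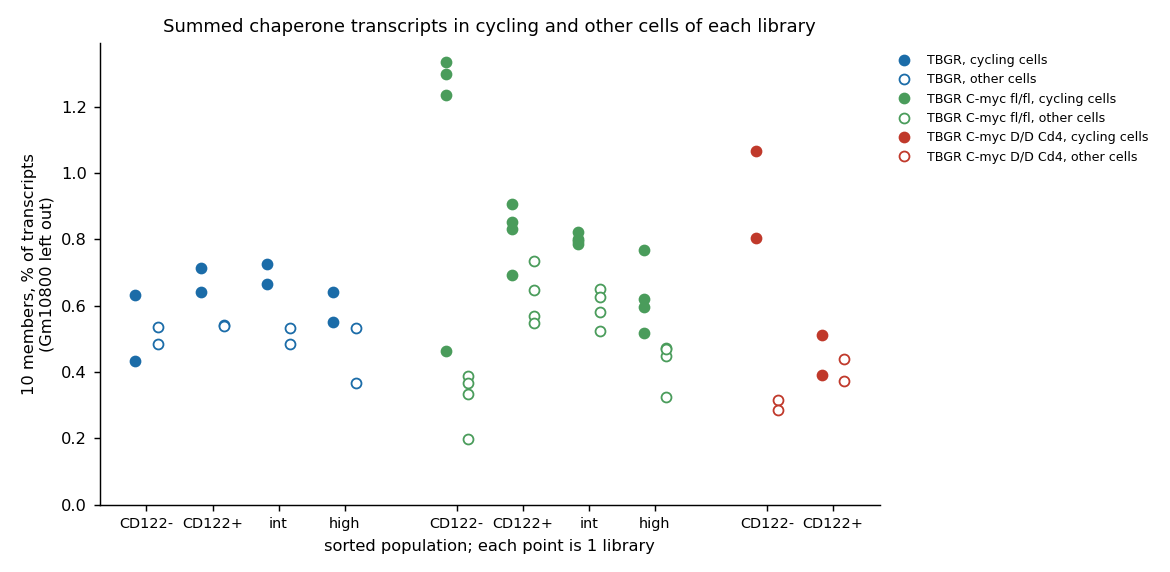
Share of the 10 genes in all transcripts without Gm10800, in percent, for cycling and other cells of each sorted population, 1 point per library. The gap is widest in CD122- cells of the fl/fl and D/D Cd4 mice, where the pooled shares were 1.20% against 0.330% and 0.976% against 0.299%. It is narrow in CD122- cells of the TBGR mouse (0.540% against 0.510%) and CD122+ cells of the D/D Cd4 mouse (0.453% against 0.398%). In library 2 of the former and library 1 of the latter, cycling cells lie below the other cells.

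Summed over all cells, the 10 members made up 0.386%, 0.565%, 0.614% and 0.461% of the transcripts of the TBGR populations in order of maturation, 0.472%, 0.594%, 0.584% and 0.392% in fl/fl, and 0.520% and 0.300% in D/D Cd4. With Gm10800 left out the fl/fl CD122- cells had the highest share of all, 0.825%, and the D/D Cd4 CD122+ cells the lowest, 0.418%. Across the 28 combinations of library and population, which share mice, libraries and depth, the mean log level of the members had a correlation of -0.57 with Gm10800. Gm10800 is part of the total that each level is divided by, so a negative correlation is built in to some extent. No value for other genes is given beside it.

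**Figure D5:**
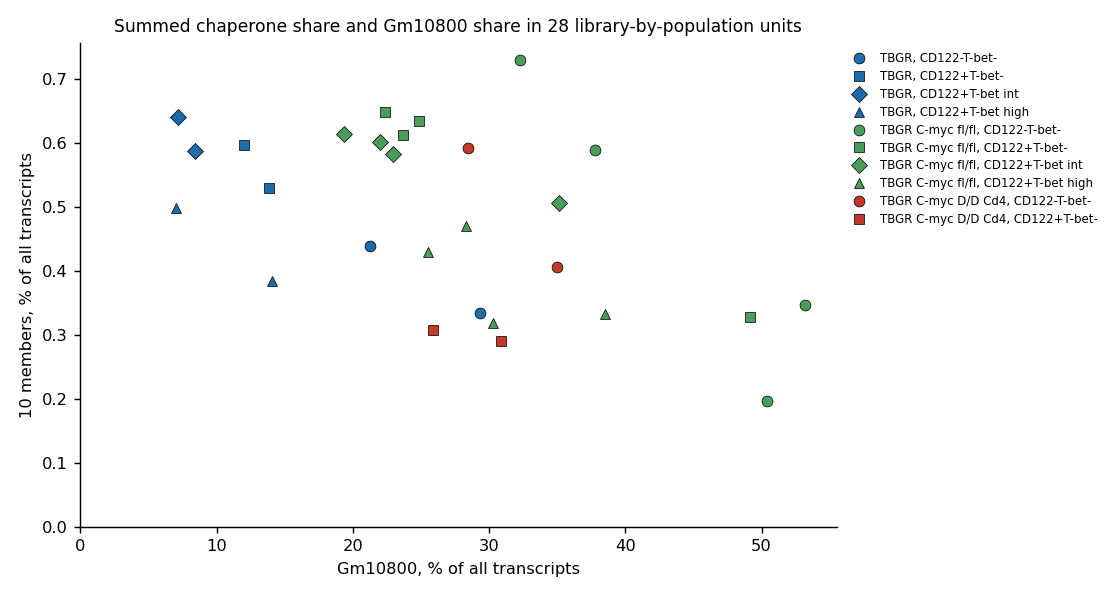
Summed share of the 10 genes in all transcripts against the share of Gm10800, both in percent, 1 point for each of the 28 combinations of library and population, coloured by mouse. Gm10800 ranged from 7.03% to 53.2% of a library, and the members' mean log level had a correlation of -0.57 with it. This value is built in to some extent, because Gm10800 is part of the total of both shares.

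Placed in order over the 10 combinations of mouse and population, the levels of neighbours mostly overlapped. Of the 9 pairs of neighbours, libraries overlapped in 6 for Hspa8, 7 for Hsp90aa1 and Hspe1, 8 for Hsp90ab1, Hspd1, Cct3, Cct5 and Cct8, and 9 for Hspa5 and Cct2. D/D Cd4 CD122+ cells were at the bottom for 6 members: Hsp90aa1 (521 CPM), Hsp90ab1 (1125 CPM), Hspd1 (89.3 CPM), Hspe1 (141 CPM), Cct3 (82.3 CPM) and Cct5 (117 CPM). At the top stood fl/fl CD122+ cells for Hsp90ab1, Hspe1, Cct2, Cct5 and Cct8, and TBGR T-bet high cells for Hspa8 (860 CPM), above their neighbour without overlap.

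The members varied together over the 28 combinations, apart from the HSP70 genes. The correlation of a member's log level with the mean of the other 9 was between 0.65 for Hspe1 and 0.87 for Cct3 for the HSP90 genes and chaperonins, 0.57 for Hspa5 and 0.35 for Hspa8. High correlations were common among all genes. The share of genes with a lower value was 75.6% for Hspe1, 99.7% for Cct3, 67.9% for Hspa5 and 49.0% for Hspa8. With Gm10800 left out it was 0.62 to 0.79 for the former, 0.28 for Hspa5 and 4.05e-05 for Hspa8. The closest pair was then Hsp90ab1 and Hspe1 (0.86), followed by Hsp90aa1 and Hspd1 (0.86), and the head-to-head genes Hspd1 and Hspe1 reached 0.73. Among 1225 genes with at least 1000 transcripts, those most like the members' mean were Kpnb1 (0.93), a nuclear import receptor, Eef1g (0.89), an elongation factor subunit, Vdac2 (0.88), a mitochondrial outer membrane channel, Fbl (0.87), the nucleolar methyltransferase fibrillarin, and Paics (0.86), an enzyme of purine synthesis. Leaving Gm10800 out gave Kpnb1 (0.87), Npm1 (0.83), a nucleolar protein, Fbl (0.83), Vdac2 (0.83) and Paics (0.82). These are descriptions over points that share mice and libraries.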

How the data were processed

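Per the labels and the study's methods, the authors demultiplexed reads with bcl2fastq 2.17.1.14, aligned them with BWA 0.6.2-r126 to GENCODE VM9 mouse gene models, merged loci that overlapped strongly and discarded reads mapping to several places. The deposited values are estimated counts of transcripts per gene and well, corrected by the authors for saturation of the molecular identifiers, and were rounded here. The series text and the study's methods differ on the NK1.1 gate, and NK1.1- was used.

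Mitochondrial and spike-in rows were removed, and cells with at least 2000 transcripts kept. Counts were summed per library and population. Library totals after summing set the precision, and the 20 libraries held 272760 to 776859 transcripts each. Log2 ratios used 0.5 added transcripts, and intervals are exact (Poisson for levels, binomial for ratios and shares). Likeness used log levels with 10 CPM added. Python 3.11.15, NumPy 2.4.6, pandas 2.3.3, SciPy 1.17.1 and Matplotlib 3.10.9 were used, and the code was tested on simulated data. No pair of cells had identical values, and each of the 192 cell barcodes served 10 libraries. Doublets were not called, since wells were sorted singly. Named genes are the 10 members and the called genes of the folding lists. Members and lists were chosen with earlier results of these data known. Alternatives covered cell and gene minimums, fold, pseudocount, thinning, weighting, cycling cells and single libraries.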

Additional observations from a re-analysis of the deposited data

Results flagged for a closer look

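Among 40 sets of 4 fl/fl libraries (10 members in 4 populations), 6 had a library set apart from the other 3 by more than Dixon's 95% limit, where chance gives about 1 in 20. In CD122+T-bet- cells library 4 was low in 5 members: Hsp90aa1 at 456 CPM (others 1024 to 1129), Hspa5 at 149 CPM, Hspd1 at 106 CPM, Cct2 at 170 CPM and Cct5 at 95.5 CPM. In T-bet int cells library 1 was high for Hspa8, at 257 CPM. With Gm10800 left out only Cct2 and Cct5 stayed past the limit, with gaps of 0.916 and 0.853 of the range.

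In 8 cases every library moved one way between CD122- and CD122+T-bet- cells in the D/D Cd4 mouse and the opposite way in another mouse, and the difference was not tested. Only the members were searched, so the share of all genes with such a case was not computed. Of all genes with values in both C-myc genotypes, 73.3% had a difference of D/D Cd4 less fl/fl below 0. Against TBGR the log2 difference was -2.41 for Hsp90aa1, -1.49 for Hsp90ab1, -2.01 for Hspd1, -1.18 for Cct2, -0.905 for Cct3 and -1.13 for Cct8. The TBGR libraries of Cct3 overlapped with Gm10800 left out. Against fl/fl it was -1.34 for Cct2 and -1.10 for Cct3, and with Gm10800 left out Cct2 was higher in the CD122+ cells of 3 of 4 fl/fl libraries only. Barcodes without a sorted cell held 330 member transcripts.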

How the results depend on the processing

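No paired analysis was possible because no test was made, and in place of it the report gives differences within the fl/fl libraries that held both populations. Of 464 medians and counts recomputed under alternatives, 391 stayed within the limits set and 73 moved. Of the 152 medians among them 10 had the other sign: 1 for D/D Cd4 CD122+ over CD122- (without cycling cells), 2 for fl/fl CD122+ over CD122- (-0.18 relative to the median gene and -0.036 with 2000 transcripts required besides Gm10800) and 7 for D/D Cd4 over fl/fl in CD122- cells (-0.38 to -0.042). Of 1320 values of single members 1237 stayed, 72 moved and 11 turned direction. The cause was not tested.

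The count of members higher in TBGR CD122+ than CD122- cells, 3, became 1 relative to the median gene, 1 without Gm10800, 1 with 2000 transcripts required besides Gm10800, 6 at the lower fold limit tried (0.32 on the log2 scale), 0 at 2-fold and 0 without cycling cells (median 0.054). From CD122+ to T-bet int cells, 0 became 4 at the lower fold limit and 1 in thinned cells (median 0.066) or without cycling cells, and the median was 0.15 with equal weights. From T-bet int to T-bet high TBGR cells, 1 member was higher relative to the median gene, without Gm10800, with 2000 transcripts required besides it, at the lower fold limit, thinned (median -0.46), with equal weights (-0.52), without ribosomal genes, without rounding, with 5 added or at least 3000 transcripts, and without cycling cells (-0.20), where 2 were lower. At 2-fold 1 was lower.

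In fl/fl without cycling cells, 2 members were higher in CD122+ cells (median 1.29). From int to high, 4 lower became 1 relative to the median gene, 1 without Gm10800 (and with 2000 required besides it), 0 at 2-fold, 2 thinned and 2 without cycling cells.

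In D/D Cd4, 7 members lower in CD122+ cells became 2 at 2-fold, 1 thinned (median -0.21), 2 with equal weights (-0.15) and 0 without cycling cells (0.85), where 4 were higher. At the lower fold limit, thinned, with equal weights or with at least 1000 transcripts, 1 was higher. Signs turned for Cct3 (0.00325), Cct5 (0.19) and Cct8 (0.58) in thinned cells, Cct8 (0.043) with equal weights, and, without cycling cells, Hsp90aa1 (0.61), Hsp90ab1 (0.90), Hspd1 (0.39), Cct2 (0.80), Cct3 (0.32), Cct5 (0.94) and Cct8 (0.95). With Gm10800 also left out, Hspd1 (-0.02) and Cct3 (-0.10) were below 0 without cycling cells.

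For D/D Cd4 over fl/fl in CD122- cells, 1 member was lower when thinned, with equal weights or with no gene minimum, and 1 higher without cycling cells. In CD122+ cells the 3 lower became 8 without Gm10800, 9 with 2000 required besides it, 6 at 1000, 5 at 3000 transcripts and 1 without cycling cells.

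Leaving out 1 library at a time, counts of higher members ranged from 1 to 6 (median 0.27 to 0.67) in TBGR CD122+ over CD122-, 0 to 1 (0.18 to 0.40) in int over CD122+ and 0 to 1 in high over int, with 6 to 9 lower (-0.87 to -0.66). In fl/fl they were 0 to 2 higher (0.08 to 0.58) for CD122+ and 1 to 5 lower (-0.63 to -0.47) for T-bet high, in D/D Cd4 0 to 1 higher and 2 to 8 lower (-0.82 to -0.39). D/D Cd4 over fl/fl gave 0 to 2 higher and 0 to 1 lower (-0.22 to 0.35) in CD122- and 3 to 9 lower (-1.22 to -0.97) in CD122+ cells.

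A limit of 2% Kcnq1ot1 per cell removed 0 cells. Hspa8 in D/D Cd4 rests on 10 transcripts per population, and genes with under 100 transcripts over both populations were not called.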
